A study of Mus musculus with 10 samples.

Results

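The mitosis and G2/M genes of pancreatic tumour epithelium are a set of 38 genes chosen by their known function in cell division, and all 38 were found by symbol among the 15624 genes of the deposited count table. They were read in tumour epithelium of KPFSR mice, taken from frozen sections by laser capture microdissection, from 6 libraries of mice given tamoxifen and 4 of mice given corn oil, the vehicle. The labels name KPFSR as the source of both groups and call the tumours established. From knowledge of the model and not from the labels, both groups carry a mutant Trp53, a floxed Slc7a11 and a tamoxifen-dependent Cre recombinase, so that tamoxifen is meant to delete Slc7a11. Ages, doses and the time after treatment are not given in the labels, and the labels do not tie libraries to animals, so p-values measure only the spread between these libraries.

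Entry into mitosis is driven by Cdk1 bound to cyclin A or cyclin B, after which Aurora and Polo-like kinases build the spindle, the kinetochore attaches chromosomes to it, and the spindle checkpoint holds the anaphase-promoting complex (APC/C) back until every chromosome is attached. Most genes of this machinery are transcribed in G2 and M phase and are switched off in resting cells, so that their summed RNA in a tissue is commonly read as a measure of how many of its cells divide. Their promoters are known for 2 elements, the cell cycle genes homology region (CHR), which the DREAM and B-Myb/MuvB complexes bind, and the CCAAT box, which NF-Y binds. In bulk samples such as these, fewer dividing cells and less of each RNA per dividing cell cannot be told apart.

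Promoter sequences were available from RefSeq (GRCm38.p6) for 30 of the 38 genes, as 33 windows of 300 bases that run from 250 bases before to 50 bases after a transcription start. The CHR core TTTGAA stood in 26 of the 33 windows (78.8%) and CCAAT in 26 (78.8%), each searched on both strands, while the first stood in 17.9% and the second in 37.4% of all 32851 promoter windows. Both stood together in 23 windows (69.7%) of 20 genes, against 6.95% of all windows. At least 2 CCAAT boxes stood in 54.5% of the mitotic windows and in 11.7% of all windows. Overlapping matches on opposite strands were counted as 2. A match is a description of letters and not of a bound site.

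The windows of the 6 most abundant genes that hold both motifs are shown, since 20 of the 30 genes with a window hold both. The order and spacing of the motifs differ between these 6. They are printed 5′ to 3′ on the gene's strand, with capitals for each TTTGAA and CCAAT or their reverse complements. Bub3 has 2 overlapping windows, of which 1 is shown. Bub3, a spindle checkpoint protein, is at chr7:131560120-131560419 on the plus strand, Ube2c, the ubiquitin-conjugating enzyme of the APC/C, at chr2:164769679-164769978 on the plus strand, and Cdk1, the mitotic kinase, at chr10:69352863-69353162 on the minus strand. Cenpa, the histone H3 variant of centromeres, is at chr5:30666636-30666935 on the plus strand, Cdc20, the APC/C activator, at chr4:118437294-118437593 on the minus strand, and Mki67, the Ki-67 proliferation antigen, at chr7:135716330-135716629 on the minus strand.
Bub3: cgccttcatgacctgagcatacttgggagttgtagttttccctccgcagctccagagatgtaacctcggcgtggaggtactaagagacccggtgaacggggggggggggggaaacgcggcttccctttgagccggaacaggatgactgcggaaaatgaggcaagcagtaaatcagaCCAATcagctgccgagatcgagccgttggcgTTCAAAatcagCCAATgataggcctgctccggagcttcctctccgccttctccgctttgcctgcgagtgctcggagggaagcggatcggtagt
Ube2c: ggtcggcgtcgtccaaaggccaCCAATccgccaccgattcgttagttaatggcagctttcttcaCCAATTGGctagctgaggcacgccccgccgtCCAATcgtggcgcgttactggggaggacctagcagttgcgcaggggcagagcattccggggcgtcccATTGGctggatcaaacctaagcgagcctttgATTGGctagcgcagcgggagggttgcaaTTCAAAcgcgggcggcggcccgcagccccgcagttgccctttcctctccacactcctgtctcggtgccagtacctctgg
Cdk1: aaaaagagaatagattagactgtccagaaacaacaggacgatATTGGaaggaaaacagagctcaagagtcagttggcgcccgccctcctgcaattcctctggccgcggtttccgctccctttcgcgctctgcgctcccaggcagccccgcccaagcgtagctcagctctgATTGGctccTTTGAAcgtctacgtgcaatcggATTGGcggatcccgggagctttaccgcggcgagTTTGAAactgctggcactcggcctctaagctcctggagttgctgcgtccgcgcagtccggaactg
Cenpa: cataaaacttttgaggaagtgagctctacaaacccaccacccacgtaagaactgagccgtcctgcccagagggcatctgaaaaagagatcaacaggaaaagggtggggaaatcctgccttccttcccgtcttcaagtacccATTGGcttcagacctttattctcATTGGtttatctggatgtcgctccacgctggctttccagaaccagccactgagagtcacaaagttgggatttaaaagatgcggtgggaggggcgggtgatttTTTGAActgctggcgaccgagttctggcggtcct
Cdc20: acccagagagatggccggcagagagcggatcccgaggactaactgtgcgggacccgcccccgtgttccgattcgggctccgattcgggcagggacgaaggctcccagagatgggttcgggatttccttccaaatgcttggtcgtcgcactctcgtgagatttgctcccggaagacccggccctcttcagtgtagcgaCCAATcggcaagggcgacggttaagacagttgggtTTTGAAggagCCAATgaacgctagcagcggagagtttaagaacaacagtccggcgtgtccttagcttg
Mki67: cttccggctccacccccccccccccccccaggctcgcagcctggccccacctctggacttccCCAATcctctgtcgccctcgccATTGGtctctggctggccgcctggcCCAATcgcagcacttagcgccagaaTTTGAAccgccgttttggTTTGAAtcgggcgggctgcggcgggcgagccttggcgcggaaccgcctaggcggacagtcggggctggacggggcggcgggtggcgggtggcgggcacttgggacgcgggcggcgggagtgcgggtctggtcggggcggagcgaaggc

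In Cdc20 and Cdk1 a CCAAT box lies upstream of a CHR core that sits just before the start site, and in Cenpa the CHR core lies just after it. Over 1 window per gene, the 51 CCAAT boxes lay at a median of 71 bases before the start site and the 29 CHR cores at a median of 2 bases after it. Birc5, Mad2l1, Nuf2 and Nusap1 held neither set of letters in their windows.

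**Figure D1:**
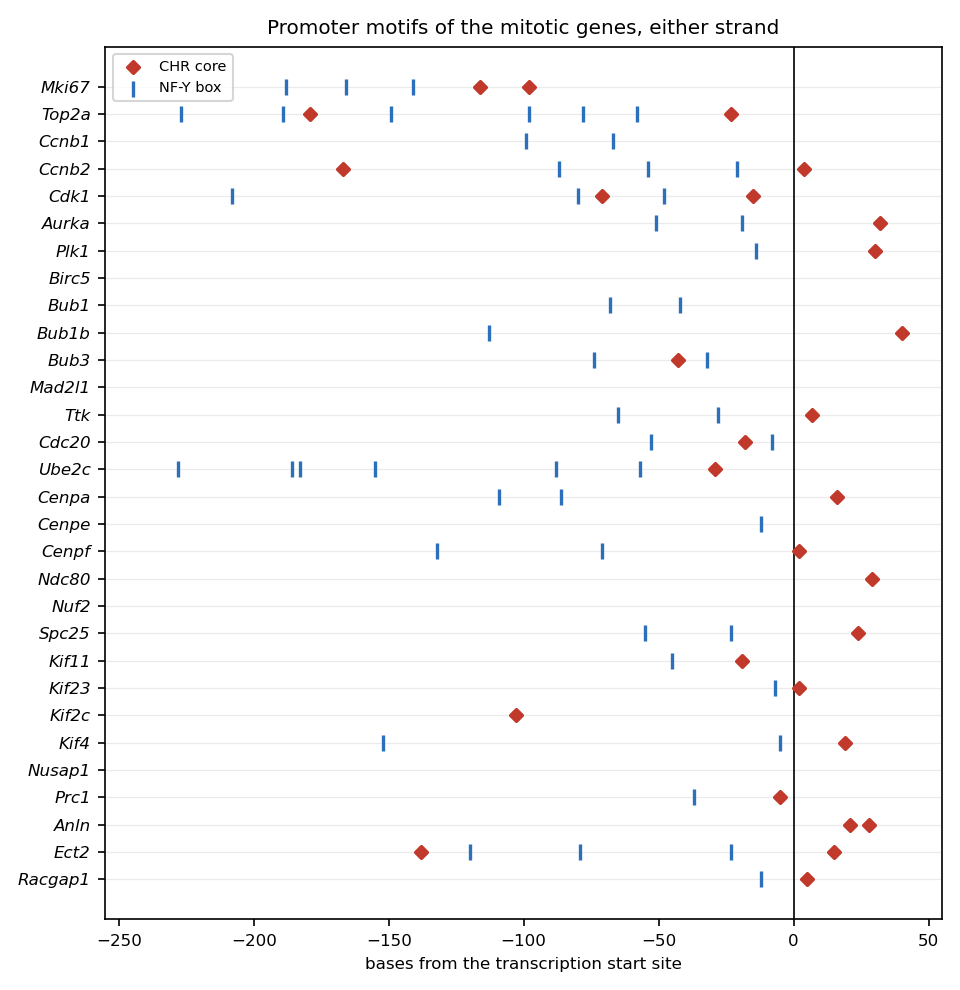
Positions of the CHR core (red diamonds) and of the NF-Y binding box (blue ticks) on either strand, in bases from the transcription start site (x axis), for the 30 mitotic genes with a promoter window (y axis), 1 window per gene. CHR cores gather around the start site (median 2) and NF-Y boxes lie upstream of it (median -71).

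Libraries held 6899350 to 19462100 counts with tamoxifen and 16473900 to 36132300 with corn oil. Levels are given as normalised CPM, counts scaled to library size with TMM factors. Slc7a11 checked the labels, at 12.1 ± 5.79 normalised CPM with tamoxifen (SD, n = 6) and 32.1 ± 8.65 with corn oil (SD, n = 4), with no overlap, although its edgeR adjusted p was 0.311. Trp53 stood at 149 ± 82.9 with tamoxifen (SD, n = 6) and 7.59 ± 1.47 with corn oil (SD, n = 4), also with no overlap. Its log2 fold change was 4.30 (edgeR adjusted p 0.0362). The groups therefore differed in Trp53 RNA as well as in Slc7a11 RNA. The part of either gene in the mitotic levels was not tested. Epithelial markers summed to at least 13885 normalised CPM in every library. Among them Krt18, with a log2 fold change of -0.02, stood at 4904 to 9360 with tamoxifen and 3185 to 10013 with corn oil. Cldn4 was far lower, at 18.5 to 229 with tamoxifen and 69.1 to 172 with corn oil. Across genes, log2 CPM correlated at 0.921 to 0.963 (Pearson) between tamoxifen replicates 1, 2 and 3 and at 0.878 or less for every other pair, so results are also given with them counted as 1 sample.

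Levels of the mitotic genes were lower on average in tamoxifen tumours, but none of the 38 passed the test. All 38 had enough counts to be tested in the main edgeR fit, whose filter removed no member. Of these, 37 had a negative log2 fold change (tamoxifen over corn oil), where 50.7% of all 13006 tested genes did, and 32 of 38 lay below -1, where 10.5% of all genes did. The median was -1.50 for the set and -0.01 for all tested genes. By edgeR's quasi-likelihood test 0 of 38 had an adjusted p under 0.05, where 0.0308% of all genes were called lower and 0.0384% in either direction. At an unadjusted p under 0.05, 20 of 38 were lower and 0 higher, where 5.27% of all genes were lower and 4.43% higher. Groups overlapped for every one of the 38, while 1.95% of all genes were lower in each tamoxifen library than in any corn oil library. DESeq2 called 1 of 38 lower (Ube2c, adjusted p 0.0304), where it called 0.93% of all genes lower. Voom with sample quality weights called 6 lower (Mki67, Plk1, Bub1, Cenpa, Spc24 and Spc25), where it called 6.94% of all genes lower.

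**Figure D2:**
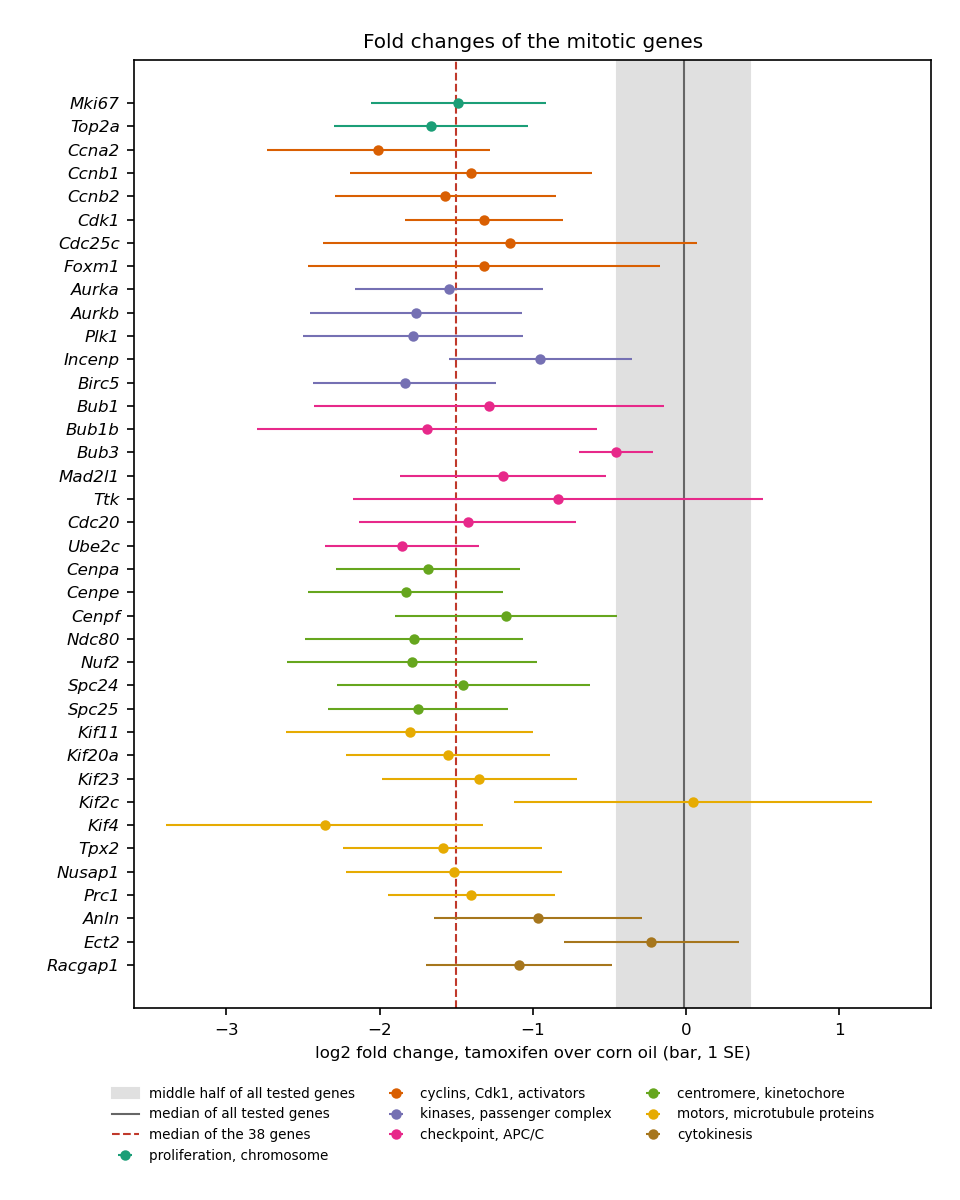
Log2 fold change of each mitotic gene, tamoxifen over corn oil (x axis, bars 1 SE), by gene and role (y axis). Of 38 points 37 lie left of 0, the dashed line marks their median of -1.50, and the grey band marks the middle 50% of all tested genes, from -0.45 to 0.42.

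The 4 corn oil libraries stood far apart. Corn oil replicates 2 and 4 were the highest library of the 10 for 35 of 38 genes, and they were the top 2 for 27. The shares of all genes for these ranks were not counted. Corn oil replicate 4 exceeded every tamoxifen library for 32 of 38 genes, as it did for 18.1% of all tested genes, and corn oil replicate 2 for 31, against 17.9% of all genes. Corn oil replicate 1 did so for 13 of 38, against 16.5% of all genes. Corn oil replicate 3 did so for 1 of 38, against 16.6% of all genes. It lay below every tamoxifen library for 3, against 11.8% of all genes, and within the tamoxifen range for 34. For 22 of 38 it lay below the tamoxifen median, a rank whose share of all genes was not counted. The mean log2 CPM of the 38 genes was 5.60 in corn oil replicate 4, 5.33 in replicate 2, 4.13 in replicate 1 and 2.94 in replicate 3.

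All 6 tamoxifen libraries were below the corn oil median of the mean level. Their mean log2 CPM of the 38 genes was 3.17, 3.28, 2.21, 3.73, 3.92 and 1.77 in replicates 1 to 6, against 2.94 to 5.60 with corn oil. For 26 of 38 genes all 6 tamoxifen libraries were below the corn oil median, and for 37 genes at least 5 were. Tamoxifen replicates 1 to 6 lay below every corn oil library for 15, 14, 25, 7, 3 and 24 of the 38 genes, where 22.7%, 20.5%, 22.5%, 27.4%, 14.9% and 34.7% of all genes did. Replicate 3 or 6 was the lowest library of the 10 for 32 genes. For this count and for those against the corn oil median of each gene, the share of all genes was not counted. Summed over the 38 genes the level was 663 ± 177 normalised CPM with tamoxifen (SD, n = 6) and 1620 ± 1026 with corn oil (SD, n = 4).

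**Figure D3:**
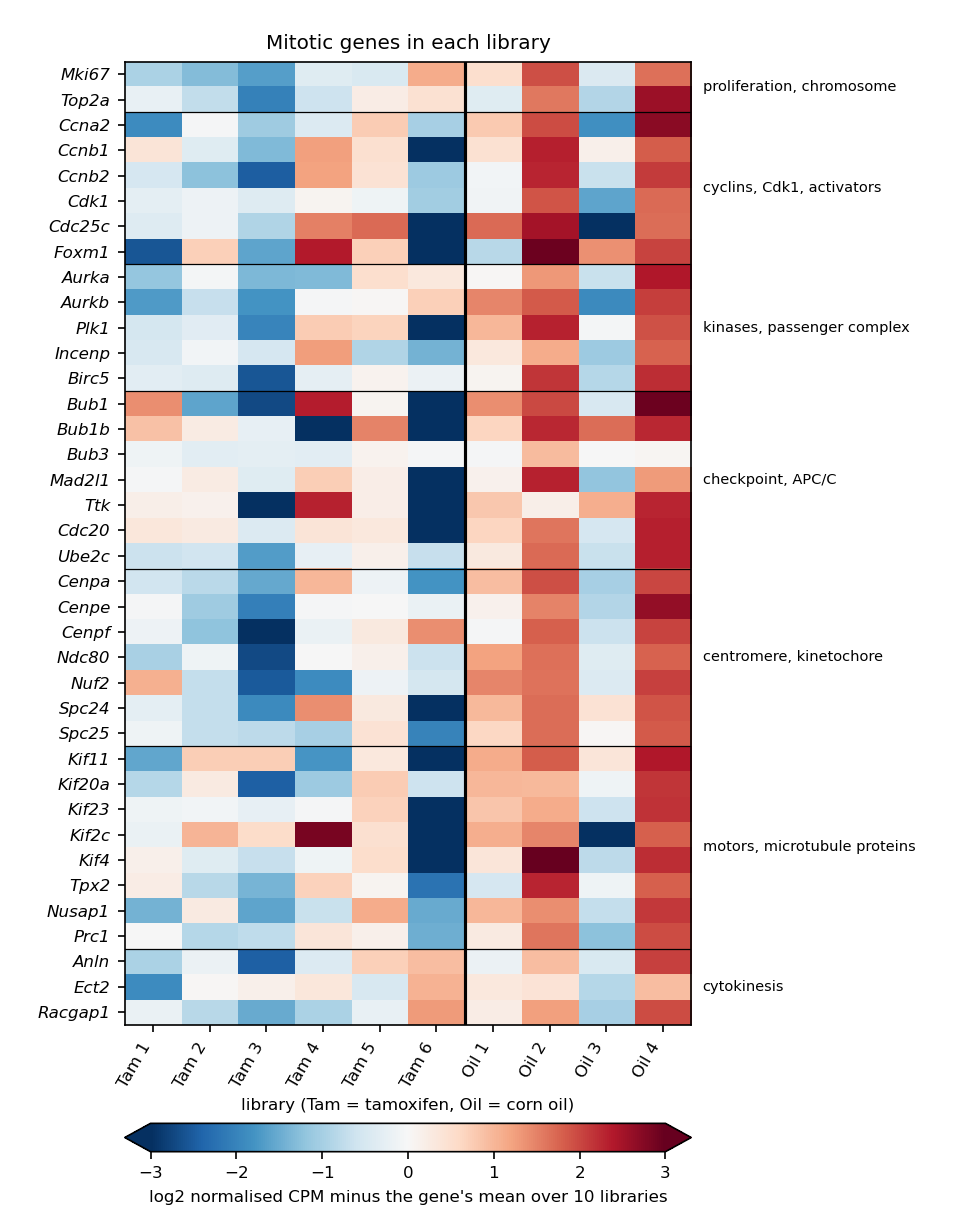
Log2 normalised CPM of each mitotic gene (rows, by role) minus that gene's mean over all 10 libraries, in 6 tamoxifen (Tam) and 4 corn oil (Oil) libraries (columns). Corn oil replicates 2 and 4 are red for most genes, corn oil replicate 3 resembles the tamoxifen libraries, and tamoxifen replicates 3 and 6 are the bluest.

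The set varied more between libraries of 1 group than most genes did. The median SD of log2 CPM over the 38 genes was 1.12 among tamoxifen libraries and 1.30 among corn oil libraries, where all tested genes had medians of 0.828 and 0.654 in those groups. Without corn oil replicate 4 the number of the 38 lower at an unadjusted p under 0.05 was 3, where 4.29% of all genes were lower at that p, and the median log2 fold change -1.14. Without corn oil replicate 2 it was 7 (4.24% of all genes), with a median of -1.33, without corn oil replicate 3 it was 26 (4.55% of all genes), with a median of -1.76, and without tamoxifen replicate 3 it was 13 (3.41% of all genes), with a median of -1.31. With tamoxifen replicates 1 to 3 counted as 1 sample it was 5 (2.67% of all genes), with a median of -1.34. Without these 3 libraries it was 2 (2.23% of all genes), with a median of -1.22.

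Tamoxifen replicate 6 was the shallowest library, and its counts of the set were small, with a median of 26.5 reads per gene against 107 to 369.5 in the other tamoxifen libraries and 243 to 1341.5 with corn oil. In it 13 of the 38 genes had fewer than 10 reads and Cdc25c, Foxm1, Bub1, Bub1b, Ttk and Kif4 had 0, where 3 reads would be 0.490 normalised CPM. Of all tested genes 13.5% had 0 reads there. It held the highest tamoxifen level of 7 of the genes, among them Mki67 and Racgap1. When every library was thinned to this depth, which was added after the data were seen, the median log2 fold change was -1.49.

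Markers of other cells were measured beside these levels. Of 10 fibroblast markers the 9 tested had positive log2 fold changes (median 0.79), and their summed level was 139.5 to 1027 normalised CPM with tamoxifen and 141 to 457 with corn oil, with tamoxifen replicate 4 the highest. With the fibroblast level as a covariate the median of the mitotic genes was -1.62, and 11 of 38 were lower at an unadjusted p under 0.05 (5.11% of all genes). Of 9 macrophage markers 7 had negative log2 fold changes (median -0.42), with sums of 824 to 2194 with tamoxifen and 950 to 1418 with corn oil. Against that direction, Cd14 was higher without overlap, at 699 to 936 with tamoxifen and 249 to 584 with corn oil. Of all 13006 tested genes, 166 were higher without overlap. Of the 8 epithelial markers 7 had negative log2 fold changes (median -0.37), with sums of 13885 to 24677 with tamoxifen and 14091 to 30067 with corn oil. Sox9 was lower without overlap, at 80.0 to 297 with tamoxifen and 367 to 458 with corn oil. Of all tested genes, 1.95% were lower without overlap. Lymphocyte markers summed to at most 1.80 with tamoxifen and 0.322 with corn oil, and none of the 5 listed had enough counts to be tested. Neutrophil markers summed to 5.20 to 129 with tamoxifen and 2.99 to 151 with corn oil (5 tested, median -0.93). Endothelial markers summed to 3.68 to 15.1 with tamoxifen and 0.305 to 22.1 with corn oil (4 tested, median -0.03). Acinar markers summed to 33.1 to 86.9 with tamoxifen and 17.2 to 204 with corn oil, most of it Cela1, with Pnlip and Prss2 at 0 in every tamoxifen library. No marker with a row was at 0 in all 10 libraries. Adgre1, Cd3e, Cd3d, Cd4, Ly6g and Amy2a5 had no row under these symbols in the counts read here, so they were not analysed. The part of other cells in the mitotic levels was not tested.

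Of the proliferation marks, Mki67 encodes Ki-67, which coats mitotic chromosomes, and Top2a the topoisomerase that untangles sister DNA. Mki67 had a lowest, median and highest level of 8.57, 16.7 and 58.3 normalised CPM with tamoxifen, against 38.05, 103, 19.9 and 84.7 in corn oil replicates 1 to 4. Of the 6 tamoxifen libraries 5 were at 20.8 or below, and 4 of these were below corn oil replicate 3, the lowest corn oil library. Tamoxifen replicate 6 reached the middle of the corn oil group. The log2 fold change was -1.49 (SE 0.57, edgeR adjusted p 0.405), and without tamoxifen replicate 6 it was -2.06. Top2a had 5.35, 16.5 and 30.4 normalised CPM with tamoxifen as lowest, median and highest, against 17.1, 65.9, 12.0 and 131 with corn oil, for a log2 fold change of -1.66 with an SE of 0.63 (adjusted p 0.395 by edgeR). Here corn oil replicates 1 and 3 lay inside the tamoxifen range.

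All 6 genes of the cyclin and Cdk1 group had negative log2 fold changes, with a median of -1.36. Ccna2, cyclin A of S phase and early mitosis, had 2.79, 6.57 and 17.95 normalised CPM with tamoxifen as lowest, median and highest, against 18.3, 41.6, 2.86 and 69.6 in corn oil replicates 1 to 4. Apart from corn oil replicate 3, every corn oil library was above every tamoxifen library. The log2 fold change was -2.01 (SE 0.73, edgeR adjusted p 0.363). Cdk1, the kinase that these cyclins activate, had 25.3, 45.3 and 55.7 with tamoxifen as lowest, median and highest, against 48.8, 195, 17.4 and 172 with corn oil, for a log2 fold change of -1.32 with an SE of 0.52 (adjusted p 0.417 by edgeR). The tamoxifen libraries were close together and the corn oil libraries spread widely, with SDs of log2 CPM of 0.392 with tamoxifen and 1.64 with corn oil.

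The B-type cyclins Ccnb1 and Ccnb2 had log2 fold changes of -1.40 and -1.57. Cdc25c, the phosphatase that switches Cdk1 on, averaged 2.62 ± 2.59 normalised CPM with tamoxifen (SD, n = 6) and 5.84 ± 4.43 with corn oil (SD, n = 4), and its log2 fold change of -1.15 had an SE of 1.22. Foxm1, a transcription factor that activates G2/M genes, was listed at 0 to 19.0 with tamoxifen (median 3.55), against 1.97, 28.2, 9.43 and 14.9 with corn oil. Tamoxifen replicate 4 was the highest of its group by far, and the log2 fold change was -1.32 (SE 1.15, edgeR adjusted p 0.793).

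Of the mitotic kinases and the chromosomal passenger complex, all 5 genes had negative log2 fold changes, with a median of -1.76. Birc5, survivin, which targets the passenger complex to centromeres, had 4.595, 22.5 and 29.5 normalised CPM with tamoxifen as lowest, median and highest, against 29.3, 123, 15.2 and 129 with corn oil. Of the tamoxifen libraries 5 were between 21.2 and 29.5 and replicate 3 was far below them. The log2 fold change was -1.84 (SE 0.60, edgeR adjusted p 0.318). Aurkb, the kinase of that complex, had 3.27, 9.27 and 19.1 with tamoxifen as lowest, median and highest, against 32.4, 41.8, 3.02 and 49.5 with corn oil, for a log2 fold change of -1.76 with an SE of 0.69 (adjusted p 0.421 by edgeR). Corn oil replicate 3 was below every tamoxifen library, and the other 3 corn oil libraries were above every tamoxifen library. Aurka and Plk1, which mature the centrosomes, had log2 fold changes of -1.55 and -1.78, and Incenp, the scaffold of the passenger complex, one of -0.95.

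The checkpoint and APC/C genes included the members of smallest edgeR p and of steadiest level. Ube2c had 15.3, 32.1 and 54.6 normalised CPM with tamoxifen as lowest, median and highest, against 59.9, 157, 30.5 and 247 in corn oil replicates 1 to 4. Corn oil replicates 1, 2 and 4 were above every tamoxifen library, and corn oil replicate 3 was near the tamoxifen median. The log2 fold change was -1.85 (SE 0.50), the edgeR adjusted p of 0.229 was the smallest of the 38 genes, and the alternatives gave adjusted p of 0.0304 to 0.98. Cdc20 had 0.817, 34.6 and 36.9 with tamoxifen, against 44.7, 86.9, 19.9 and 144 with corn oil, for a log2 fold change of -1.43 with an SE of 0.71 (adjusted p 0.555 by edgeR). Of its tamoxifen libraries 5 lay between 21.5 and 36.9, while replicate 6 held 5 reads.

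Bub3, which also serves outside mitosis, had 136, 147 and 185 normalised CPM with tamoxifen as lowest, median and highest, against 167, 327, 170 and 177 with corn oil. Its log2 fold change was -0.46 (SE 0.24, edgeR adjusted p 0.582), and its SDs of log2 CPM, 0.180 with tamoxifen and 0.468 with corn oil, were the smallest of the set in both groups. The other checkpoint genes were less abundant. Mad2l1, Bub1, Bub1b and Ttk, which together signal unattached kinetochores, had log2 fold changes of -1.19, -1.29, -1.69 and -0.83, with SEs of 0.67 to 1.34. Bub1 was listed at 0 in tamoxifen replicate 6 and at 22.2 in replicate 4, and Ttk, at 0 in tamoxifen replicates 3 and 6, had the lowest level per kilobase of the set.

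**Figure D4:**
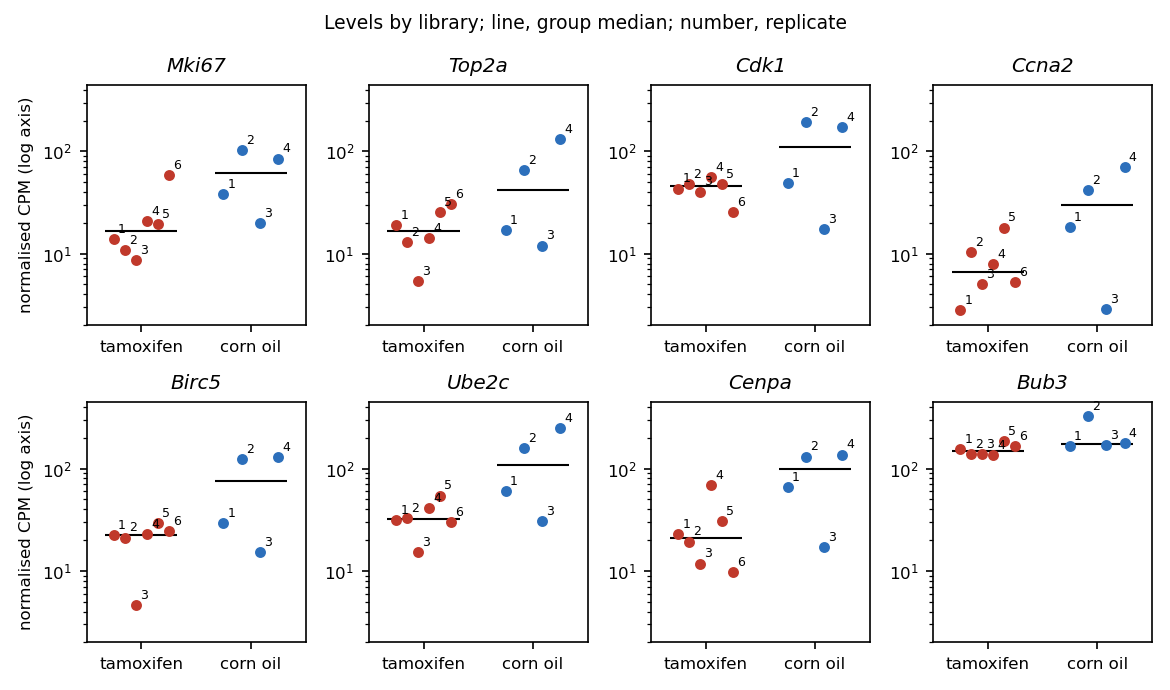
Normalised CPM (log y axis) of 8 mitotic genes in each tamoxifen (red) and corn oil (blue) library, with replicate numbers and group medians as lines. Corn oil replicates 2 and 4 lie above the tamoxifen libraries for all panels but Bub3, where corn oil replicate 4 (177) lies inside the tamoxifen range.

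The 7 centromere and kinetochore genes all had negative log2 fold changes, between -1.83 and -1.17, with a median of -1.75. Spc25, a subunit of the Ndc80 complex that grips microtubules, had 2.12, 5.23 and 12.0 normalised CPM with tamoxifen as lowest, median and highest, against 13.7, 28.4, 8.99 and 32.0 with corn oil. Of the 6 tamoxifen libraries 5 were below every corn oil library, and tamoxifen replicate 5 was the exception. The log2 fold change was -1.75 (SE 0.59, edgeR adjusted p 0.327). Cenpe, a kinetochore motor, had 3.13, 12.3 and 13.3 with tamoxifen, against 14.6, 37.7, 7.21 and 83.3 with corn oil, for a log2 fold change of -1.83 with an SE of 0.64 (adjusted p 0.345 by edgeR).

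Cenpa had 9.80, 21.1 and 68.7 normalised CPM with tamoxifen as lowest, median and highest, against 65.6, 131, 17.2 and 137 with corn oil. Tamoxifen replicate 4 stood at the level of corn oil replicate 1, and the log2 fold change was -1.69 (SE 0.60, edgeR adjusted p 0.355). The other subunits of the Ndc80 complex, Ndc80, Nuf2 and Spc24, had log2 fold changes of -1.77, -1.79 and -1.45. Cenpf, a large coiled-coil protein of the outer kinetochore, had one of -1.17, and its tamoxifen libraries ran from 1.99 to 52.5.

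Of 8 motors and microtubule-associated proteins, 7 had log2 fold changes between -2.36 and -1.35. Prc1, which bundles the microtubules of the central spindle, had 9.15, 20.0 and 32.4 normalised CPM with tamoxifen as lowest, median and highest, against 30.7, 77.1, 10.8 and 99.0 with corn oil, for a log2 fold change of -1.40 with an SE of 0.55 (adjusted p 0.415 by edgeR). Tpx2, which activates Aurora A on the spindle, had 3.43, 13.2 and 26.5 with tamoxifen, against 11.6, 80.1, 14.9 and 57.2 with corn oil, for a log2 fold change of -1.59 with an SE of 0.65 (adjusted p 0.443 by edgeR). In both genes corn oil replicates 2 and 4 were above every tamoxifen library. Kif4, a chromosome-bound kinesin, had the most negative log2 fold change of the set, -2.36 (SE 1.03, edgeR adjusted p 0.486), at 1.96 ± 1.20 normalised CPM with tamoxifen (SD, n = 6) and 10.1 ± 10.5 with corn oil (SD, n = 4). Kif11, Kif20a and Kif23, the motors of spindle bipolarity and cytokinesis, and Nusap1, a microtubule bundler, had log2 fold changes of -1.80, -1.55, -1.35 and -1.52.

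Kif2c, a kinesin that takes microtubules apart at centromeres, was the 1 gene with a log2 fold change above 0 (0.05, SE 1.17, edgeR adjusted p 0.998). It had 0.163, 6.35 and 32.2 normalised CPM with tamoxifen as lowest, median and highest, against 9.54, 12.4, 0.040 and 15.6 in corn oil replicates 1 to 4. Tamoxifen replicate 4 held the highest level of all 10 libraries, and corn oil replicate 3 held 1 read. Without tamoxifen replicate 4 the log2 fold change was -0.86, and without corn oil replicate 3 it was -0.37.

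The 3 cytokinesis genes had the median nearest 0 of the 7 role groups, -0.96. Racgap1 and Ect2 form the switch that activates RhoA at the cell equator, and Anln, anillin, ties the contractile ring to the membrane. Racgap1 had 8.29, 16.8 and 57.8 normalised CPM with tamoxifen, against 27.7, 56.1, 11.9 and 91.6 with corn oil, for a log2 fold change of -1.09 with an SE of 0.61 (adjusted p 0.620 by edgeR). Anln had 2.13, 9.87 and 23.2 with tamoxifen, against 10.7, 23.0, 8.83 and 50.02 with corn oil, for a log2 fold change of -0.96 with an SE of 0.68 (adjusted p 0.716 by edgeR). For both, tamoxifen replicate 6 was the highest of its group. Ect2 averaged 13.8 ± 7.70 with tamoxifen (SD, n = 6) and 16.1 ± 7.17 with corn oil (SD, n = 4), and its log2 fold change was -0.23 with an SE of 0.57.

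Scaled by exon length, the level (mean normalised CPM per kilobase over all 10 libraries) was highest for Ube2c at 26.9, Bub3 at 25.1 and Cdc20 at 24.6, followed by Ccnb2 at 17.8 and Cdk1 at 14.03. The lowest levels per kilobase were those of Kif4 at 0.949, Cdc25c at 0.795 and Ttk at 0.447. The log2 fold changes of these 3 had SEs of 1.03, 1.22 and 1.34. In this unstranded protocol 11 of the genes share exon bases with another gene in GENCODE M21, the longest stretches being 1271 bases of Kif20a with Cdc23, 911 of Prc1 with Rccd1 and 832 of Kif4 with Pdzd11, all on the opposite strand, and reads there cannot be told apart by strand.

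Fold changes overlapped between genes with and without these promoter letters. The 20 genes with both motifs had a median log2 fold change of -1.52 (from -2.36 to -0.23), the 6 with 1 motif a median of -1.34 (from -1.83 to 0.05), and the 4 with neither a median of -1.65 (from -1.84 to -1.19).

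A further 109 mitotic genes outside the set showed a smaller median. Of 107 tested, 80 had negative log2 fold changes, 41 lay below -1 and the median was -0.65. By edgeR 0 passed an FDR of 0.05 in either direction, while at an unadjusted p under 0.05 14 of 107 were lower and 3 higher, where 5.27% of all genes were lower and 4.43% higher. DESeq2 called 1 of 107 lower and 2 higher, where it called 0.93% of all genes lower and 0.938% higher. Voom called 3 of 107 lower and 2 higher, where it called 6.94% of all genes lower and 2.68% higher. All 18 other motor and spindle genes and all 7 other cytokinesis genes tested were negative, with medians of -1.69 and -1.42, and the 22 kinases and regulators had a median of -0.94. The 8 condensin genes, which compact chromosomes, had a median of -0.76, and the 26 further kinetochore genes one of -0.41. Subunits and regulators of the APC/C (15 genes, median 0.08) and cohesion genes (11 genes, median 0.05) had medians near 0 and not below it.

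The 4 of smallest p among them pointed both ways. Pmf1, a subunit of the Mis12 kinetochore complex, had 15.2, 32.0 and 37.2 normalised CPM with tamoxifen as lowest, median and highest, against 55.04, 82.4, 69.6 and 68.4 with corn oil, for a log2 fold change of -1.24 with an SE of 0.31 (adjusted p 0.187 by edgeR). Its groups did not overlap. Smc2, a condensin subunit, had 20.1, 24.6 and 32.7 with tamoxifen, against 35.6, 55.5, 33.2 and 148 with corn oil, for a log2 fold change of -1.41 with an SE of 0.41 (adjusted p 0.261 by edgeR), again without overlap. Cdc23, an APC/C subunit, had 16.02, 33.7 and 52.0 with tamoxifen, against 14.04, 9.12, 4.23 and 9.19 with corn oil, for a log2 fold change of 1.85 with an SE of 0.47 (adjusted p 0.199 by edgeR). It is the gene that shares exon bases with Kif20a. Zwint, a kinetochore protein that recruits the RZZ complex, had 140, 195 and 234 with tamoxifen, against 114, 109, 82.3 and 109 with corn oil, for a log2 fold change of 0.86 with an SE of 0.22 (adjusted p 0.212 by edgeR). Cdc23 and Zwint were both higher in each tamoxifen library than in any corn oil library. Of the 107 genes, 3 were lower and 2 higher without overlap. Among all tested genes 1.95% were lower without overlap, and 166 of 13006 were higher. DESeq2 gave adjusted p of 0.0140 for Pmf1, 0.00507 for Cdc23 and 0.0174 for Zwint.

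Genes that govern G1 and entry into S phase had no common direction. Of 31 tested, 15 had negative and 16 positive log2 fold changes, with a median of 0.02. By edgeR 0 of 31 passed an FDR of 0.05, and at an unadjusted p under 0.05 there were 1 lower and 1 higher, where 5.27% of all genes were lower and 4.43% higher. DESeq2 called 0 of 31, and voom called 3 lower, near the 6.94% of all genes that it called lower. The median was -0.15 for 8 cyclins and kinases, -0.01 for 7 CDK inhibitors and 0.23 for 16 genes of the E2F, RB and DREAM group. Cdkn1a, which encodes the CDK inhibitor p21 and is a target of p53, had 130, 203 and 633 normalised CPM with tamoxifen as lowest, median and highest, against 108, 155, 139 and 168 with corn oil, for a log2 fold change of 0.98 with an SE of 0.42 (adjusted p 0.481 by edgeR). Tamoxifen replicates 1, 4, 5 and 6 were above every corn oil library, and replicates 2 and 3 lay within the corn oil range. Without tamoxifen replicate 6, the highest, the log2 fold change was 0.57.

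Cdkn2a, which encodes p16 and p19Arf, had 15.9, 22.2 and 40.0 normalised CPM with tamoxifen, against 34.5, 52.4, 112 and 43.6 with corn oil, for a log2 fold change of -1.25 with an SE of 0.40 (adjusted p 0.311 by edgeR). Lin37, a subunit of the MuvB core, had a log2 fold change of -0.55 with an SE of 0.27 (adjusted p 0.551 by edgeR). Rbbp4, a chromatin-binding subunit of the same core, had 267 to 350 with tamoxifen, against 266, 251.1, 232 and 235 with corn oil, for a log2 fold change of 0.34 with an SE of 0.19 (adjusted p 0.617 by edgeR). It was the 1 gene of the 31 whose groups did not overlap, where 166 of 13006 tested genes were higher in this way. E2f1 and Ccnd1, cyclin D1, had log2 fold changes of 0.45 (SE 0.88) and -0.32 (SE 0.45), edgeR adjusted p 0.932 and 0.893.

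**Figure D5:**
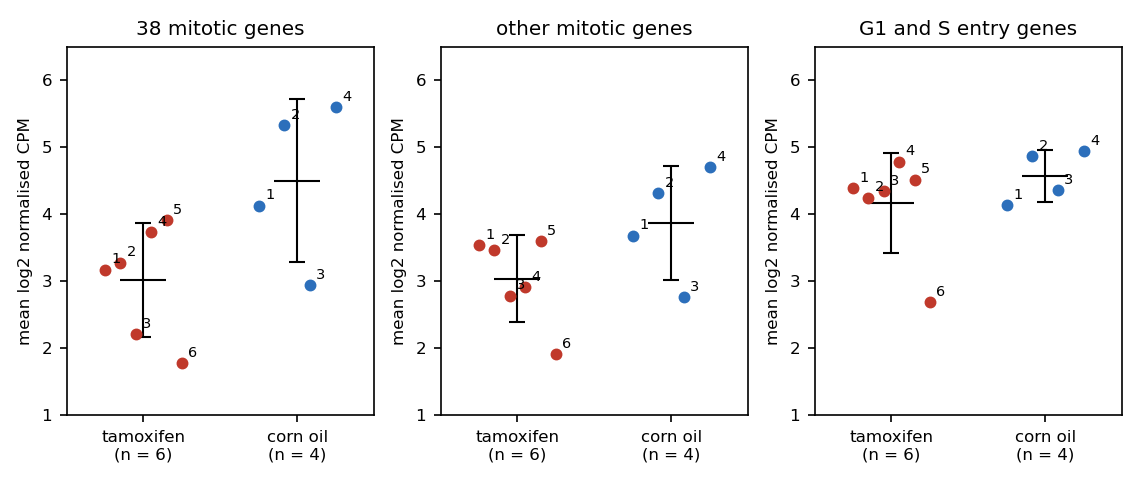
Mean log2 normalised CPM per library (y axis) over the 38 mitotic genes, 107 other mitotic genes and 31 G1 and S entry genes, for tamoxifen (red, n = 6) and corn oil (blue, n = 4), with replicate numbers and bars for mean and SD. Group means are 3.01 and 4.50 for the mitotic genes, 3.04 and 3.87 for the other mitotic genes and 4.16 and 4.58 for the G1 and S entry genes, with tamoxifen replicate 6 the lowest library in all 3 panels. That library was also lowest over all tested genes, at 3.35 against 3.86 to 4.33 elsewhere. For the G1 and S entry genes it stood at 2.69. The other tamoxifen libraries stood there at 4.25 to 4.79 and corn oil at 4.14 to 4.94.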

How the data were processed

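Tumour epithelium was laser-captured from frozen sections, and amplified cDNA was sequenced with a kit that does not mark strand, per the labels' protocols. The authors deposited whole-number read counts per gene. The submitters' processing notes name bcl2fastq 2.17, STAR 2.5.2b, featureCounts 1.5.0-p3 and mm10, while no source used here gives the annotation or strand setting. Amplification without molecular identifiers makes reads other than independent molecules, so limits from low counts cover counting error only.

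Counts of all 15624 genes were fitted with edgeR 4.0.16 (quasi-likelihood, TMM factors, filterByExpr), which tested 13006 genes, with p adjusted by Benjamini-Hochberg over all of them and a threshold of 0.05. The SE is the log2 fold change divided by the root of its F statistic. Log2 CPM used a prior count of 2. DESeq2 1.42.0 and limma 3.58.1 (voom) were alternatives. Replicate numbers follow listing order and pair nothing.

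The members and gene lists were chosen by function with earlier results of these data known. For Mki67, Top2a and Foxm1, corn oil values are given per library and tamoxifen values as lowest, median and highest. The same holds for the 2 members of smallest p and the most abundant 1 of each role. It also holds for the member farthest from the median's direction. Other genes are named for their p (the 4 smallest of each list), with Cdkn1a, E2f1 and Ccnd1 added. Positions and exon overlaps come from GENCODE M21, in which 93.8% of the symbols were found.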

Additional observations from a re-analysis of the deposited data

Results flagged for a closer look

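Within a group of 4 or 6 libraries, 108 sets of values were searched for a single library whose gap to the nearest other exceeded Dixon's 95% critical value, and 11 were found. For independent, normally distributed sets that value flags about 1 in 20. These sets share libraries and include low counts, so that rate need not hold here. For 5 mitotic genes tamoxifen replicate 4 was the high library, with Foxm1 at 19.0 normalised CPM (others 0 to 6.02), Incenp at 43.9 (others 6.86 to 17.6), Ttk at 6.09 (others 0 to 1.34), Cenpa at 68.7 (others 9.80 to 30.6) and Kif2c at 32.2 (others 0.163 to 9.08). The same library held the highest summed fibroblast (1027) and macrophage (2194) marker levels, and their part in these values was not tested. Tamoxifen replicate 6, the shallowest library, was the high library for Mki67 at 58.3 (others 8.57 to 20.8) and Racgap1 at 57.8 (others 8.29 to 20.6), and the low one for the mean log2 CPM of the G1 and S entry genes at 2.69 (others 4.25 to 4.79). Birc5 was low in tamoxifen replicate 3 at 4.595 (others 21.2 to 29.5). Among corn oil libraries, Bub3 was high in replicate 2 at 327 (others 167 to 177) and Zwint was low in replicate 3 at 82.3 (others 109 to 114).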

How the results depend on the processing

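The median log2 fold change of the 38 mitotic genes stayed negative under each alternative run, between -1.76 with corn oil replicate 3 left out and -1.14 with corn oil replicate 4 left out, with 35 to 38 genes negative. Under the minimum of 5 CPM in 4 libraries 36 of the 38 were tested. None passed the FDR with any edgeR setting, against 1 with DESeq2 and 6 with voom. The number of all genes past the FDR, 5 in the main edgeR fit, was 243 with DESeq2, 1251 with voom, 21 with detected genes as a covariate, 18 at an FDR of 0.1, 77 without tamoxifen replicates 4 and 6, 0 with tamoxifen replicates 1 to 3 as 1 sample or left out, and 0 to 11 when leaving out each library in turn. The cause of these shifts was not tested. The log2 fold change of Kif2c turned to -0.025 with detected genes and -0.64 with fibroblast level as a covariate, and to -0.55 without both tamoxifen replicates 4 and 6. Leaving out 1 library at a time, it ran from -0.86 (tamoxifen replicate 4 omitted) to 0.40 (corn oil replicate 4 omitted), and was -0.37 with corn oil replicate 3 omitted, while voom gave 1.17, the highest value of any alternative. Ccnd1 turned to 0.048 with corn oil replicate 4 omitted, 0.015 when tamoxifen replicates 1 to 3 were 1 sample and 0.28 without them, and E2f1 to -0.33 without them. The median of the G1 and S entry genes was then also -0.33, and it ran from -0.17 to 0.10 when leaving out each library in turn. No paired analysis was possible because the replicate numbers follow listing order and the labels tie no library to an animal. Depth limits the genes of low count most in tamoxifen replicate 6.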
